A study of Rattus norvegicus with 6 samples.

Results

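Hnrnpa2b1 and its 6 closest hnRNP paralogs, Hnrnpa1, Hnrnpa3, Hnrnpa0, Hnrnpab, Hnrnpd and Hnrnpdl, were followed in BRL-3A, a long-cultured cell line from rat liver. The 7 genes were picked by symbol from a table of 30957 gene models. A member symbol named 8 models, and Hnrnpd was found under its older symbol Hnrpd, which made 9 models in all. Hnrnpa3 and Hnrnpab have 2 models each, and the model with the most counts stood for the gene. RNA was sequenced from 3 libraries labelled NC, a name the labels do not spell out, and 3 labelled si-hnrnpa2b1, called knockdown libraries below. Per the labels' protocols, siRNA was given with a lipid reagent for 48 h. For both groups alike the labels give Sprague-Dawley as the strain and raised blood triglycerides as the disease state, whereas the line's name stands for Buffalo rat liver. Nothing in the labels tells whether each library had its own culture; p-values therefore describe the scatter of these 6 libraries, which may be technical. In bulk RNA, fewer cells that use a gene and less of its RNA per cell cannot be told apart.

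Proteins of the hnRNP A/B/D family carry a pair of RNA recognition motifs followed by a glycine-rich tail, and they coat nascent transcripts in the nucleus. hnRNP A1 and A2/B1 are best known for repressing splice sites, and A2/B1, A3 and A/B for carrying transcripts along cell processes. hnRNP D, also called AUF1, and its relatives D-like and A0 bind AU-rich elements, through which the decay of short-lived transcripts is set. In human cells the A2/B1 protein is known to limit its own mRNA through alternative splicing coupled to nonsense-mediated decay.

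Library totals lay between 13374412 and 15224108 counts. Levels are given as CPM, counts scaled to library size with edgeR's TMM factors, or as FPKM, the deposited value scaled to length and depth, wherever genes are compared with each other. The words rose, fell and changed are kept for genes with an adjusted p below 0.05 in the quasi-likelihood test of edgeR (Benjamini-Hochberg, 12261 tested genes). Of those genes 650 changed (5.3%), 289 upward (2.36%) and 361 downward (2.94%). For a model to which its reads were assigned, a count of 0 allows up to 0.199 to 0.227 CPM, depending on the library. Whether that held for each model at 0 was not tested. Of 10 hepatocyte markers 6 were at 0 counts in all libraries (Alb, Ttr, Apob, Hnf4a, Serpina1 and Cps1), while 7 of 10 stellate cell or fibroblast markers had a mean of at least 5 CPM. Of the latter list Col1a2 and Lrat were at 0 counts in all libraries, and Thy1 reached a mean of at most 0.0226 CPM. The summed level of that list was 15200 to 15585 CPM in NC against 15104 to 16068 CPM after knockdown. Col1a1 and Col3a1, at 11773 and 2059 CPM in NC, made up most of this sum. Of the 7 genes of that list at 5 CPM or more, 2 were called, beside 5.3% of all tested genes. Both rose, Des (log2 0.30, edgeR adjusted p = 0.014) and Acta2 (log2 0.27, edgeR adjusted p = 0.0049). Col1a2, Lrat and Thy1 were not tested. Summed hepatocyte markers reached 27.1 to 30.5 CPM in NC against 29.5 to 33.8 CPM after knockdown, cholangiocyte markers 13.5 to 15.03 against 11.8 to 12.5, endothelial markers 40.4 to 46.5 against 46.1 to 48.7 and leukocyte markers 1.48 to 2.50 against 1.49 to 3.32, with 0 genes of these lists called by edgeR. Tf, at 28.3 CPM in NC, made up most of the hepatocyte sum. It was the only hepatocyte marker tested, and Cd68 was the only leukocyte marker tested. Of the cholangiocyte markers Krt7, Sox9 and Spp1 were tested, and of the endothelial markers Kdr, Tek and Stab2. The other genes of these lists were not tested, and Pecam1 was not matched. The part of any of these cell types in the results below was not tested.

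The targeted gene fell but was still among the most abundant of the family, highest per length and next to Hnrnpa1 by CPM. Hnrnpa2b1 (ENSRNOG00000011175, chromosome 4, 81237496 to 81241282 of Rnor_6.0) had 953, 1064 and 1025 CPM in the NC libraries against 662, 584 and 573 CPM after knockdown. The groups did not overlap, and the log2 fold change was -0.74 ± 0.06 (SE, n = 3 per group; edgeR adjusted p = 2.3e-06). The 95% interval of the change ran from -45.0% to -34.9%. By mean FPKM the gene ranked 46th of all gene models in NC and 94th after knockdown.

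Hnrnpa1, the best studied splicing repressor of the family, rose. Its model (ENSRNOG00000036839, chromosome 7, 144865608 to 144871585) had 479, 471 and 470 CPM in NC against 653, 628 and 606 CPM after knockdown. All knockdown libraries lay above all NC libraries, and the NC values differed little among themselves (SD 5.15 CPM). The log2 fold change was 0.41 ± 0.04 (edgeR adjusted p = 3.7e-05), with a 95% interval from 24.7% to 41.5%. Hnrnpa1 had the 22nd smallest p of the tested genes and Hnrnpa2b1 the 5th.

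The promoters of the 3 members that changed are shown because they are the stretches from which the moving transcripts start. They are RefSeq sequences of build GRCr8, not of the build behind the counts, and run from 250 bases before to 50 bases after the annotated start. Hnrnpa2b1 lies at chr4:81875837-81876136 on the minus strand, Hnrnpa1 at chr7:136253868-136254167 and Hnrnpa3 at chr3:80985684-80985983, both on the plus strand. Capitals mark every match, on either strand, to the CCAAT box (CCAAT), the GC box (GGGCGG), the TATA box (TATAAA), the half-site of the cyclic AMP response element (TGACG) and the E-box (CACGTG).
Hnrnpa2b1: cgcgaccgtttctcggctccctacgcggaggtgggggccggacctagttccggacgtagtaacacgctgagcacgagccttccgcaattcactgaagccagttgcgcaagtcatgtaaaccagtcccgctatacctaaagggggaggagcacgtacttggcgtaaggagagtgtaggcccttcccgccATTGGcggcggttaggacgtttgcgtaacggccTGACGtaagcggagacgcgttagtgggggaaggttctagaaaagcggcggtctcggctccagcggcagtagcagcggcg
Hnrnpa1: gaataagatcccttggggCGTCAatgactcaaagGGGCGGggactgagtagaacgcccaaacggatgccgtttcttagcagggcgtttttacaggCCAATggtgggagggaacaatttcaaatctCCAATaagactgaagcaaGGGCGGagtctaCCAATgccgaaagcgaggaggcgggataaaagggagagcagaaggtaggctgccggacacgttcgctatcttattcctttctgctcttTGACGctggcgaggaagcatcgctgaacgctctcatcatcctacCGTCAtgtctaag
Hnrnpa3: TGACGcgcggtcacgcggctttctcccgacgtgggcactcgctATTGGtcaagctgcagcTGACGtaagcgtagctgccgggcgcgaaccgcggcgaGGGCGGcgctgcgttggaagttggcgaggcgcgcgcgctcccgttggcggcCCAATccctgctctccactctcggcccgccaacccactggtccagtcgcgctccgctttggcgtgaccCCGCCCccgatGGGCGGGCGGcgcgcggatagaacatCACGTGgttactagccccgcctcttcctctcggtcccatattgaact
All 7 members had a promoter in the RefSeq table, Hnrnpdl a pair of them. A member was counted if any of its promoters matched, whereas the percentages are of single promoters. Hnrnpdl held CACGTG in promoter 1 only and TATAAA in promoter 2 only. The CCAAT box was found in 6 of 7 members, all but Hnrnpd, and in 37.5% of 33469 promoters of this length. TGACG was found in 5 of 7, all but Hnrnpab and Hnrnpd, against 21.2%. The GC box was found in 6 of 7, all but Hnrnpa2b1, against 33.1%, TATAAA in 3 against 14.2%, and CACGTG in 3 against 6.42%. These letters alone do not mark a bound site, and the member promoters held 52.3% to 76.0% G and C, against a median of 51.7% over all promoters. In Hnrnpa3, 2 of the GC box matches overlap.

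Hnrnpa3, which binds transport signals in mRNA together with A2/B1 in rat, rose by a smaller amount. The main model (ENSRNOG00000052968, chromosome 3, 62481323 to 62487227) had 214, 214 and 224 CPM in NC against 256, 249 and 235 CPM after knockdown, with no overlap. The log2 fold change was 0.18 ± 0.05 (edgeR adjusted p = 0.032). The call was lost without NC replicate 1 or 2, without knockdown replicate 1 or 2, under the replicate block and when limma was run on FPKM, the adjusted p reaching 0.14.

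A pair of further models resembling Hnrnpa3 had positive fold changes that did not pass the test. The second model named Hnrnpa3 (ENSRNOG00000027006, chromosome 10, 80953006 to 80954332) lies within the span of Car10, which had 0 counts. It had 83.8, 93.2 and 95.2 CPM in NC against 111, 107 and 99.5 CPM after knockdown, again without overlap (log2 0.22 ± 0.06, edgeR adjusted p = 0.053). DESeq2 called it (adjusted p = 0.041), as did edgeR without a filter on low counts (0.045) and without NC replicate 3 (0.049). The table also lists LOC100911361 (chromosome 2, 121129199 to 121130675), described there as A3-like and added here after its values were seen. It had 149, 158 and 156 CPM in NC against 186, 164 and 157 CPM after knockdown, and its groups overlapped (log2 0.14 ± 0.06, edgeR adjusted p = 0.24). Counted as 1 gene, the 3 models passed narrowly, at 0.17 (log2; edgeR adjusted p = 0.0495). The length behind the FPKM of LOC100911361, 1477 bases, equals its genomic span, so that this model holds no intron. The sources used here do not tell how reads shared by near-identical genes were assigned, so the split among these models is uncertain.

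The D branch and Hnrnpa0 did not pass the test. Hnrnpd (as Hnrpd, ENSRNOG00000002292, chromosome 14, 11256268 to 11274578) had 284, 279 and 271 CPM in NC against 299, 289 and 282 CPM after knockdown. Its groups overlapped; edgeR's estimate on the log2 scale was 0.06 ± 0.04 (adjusted p = 0.50), with a 95% interval from -2.12% to 11.3%. Hnrnpdl, its neighbour on chromosome 14 (ENSRNOG00000002270, 11198896 to 11202669), had 244, 250 and 249 CPM in NC against 244, 232 and 230 CPM after knockdown. Here the first knockdown library lay just above the lowest NC library, and the log2 fold change was -0.07 ± 0.04 (edgeR adjusted p = 0.41; 95% interval -10.8% to 1.40%). For Hnrnpa0 (ENSRNOG00000039876, chromosome 17, 6909728 to 6910630) the values were 34.4, 31.3 and 28.9 CPM in NC against 25.9, 31.7 and 33.7 CPM after knockdown. The groups overlapped (log2 -0.05 ± 0.10, edgeR adjusted p = 0.85; 95% interval -16.8% to 11.7%), and the sign turned to 0.01 without NC replicate 1 and 0.05 without knockdown replicate 1.

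Hnrnpab, known in mouse as CArG-box binding factor A, could not be measured. Both of its models on chromosome 10 (ENSRNOG00000003645, 34955716 to 34961608, and ENSRNOG00000046272, 37049677 to 37055282) were listed at 0 counts in all 6 libraries. The genes around them recur too: within 100 kb, 5 symbols were present next to both models, Col23a1, Nhp2, Rmnd5b, N4bp3 and LOC100910318, and all 5 were listed at 0 in both places. Nhp2 encodes a core protein of the particles that guide RNA pseudouridylation, which every cell uses, so a 0 here is no measure of expression. Of the 8 models around the first copy 8 were at 0, and of the 7 around the second 6, the exception being Sec24a with 7994 counts over all libraries.

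**Figure D1:**
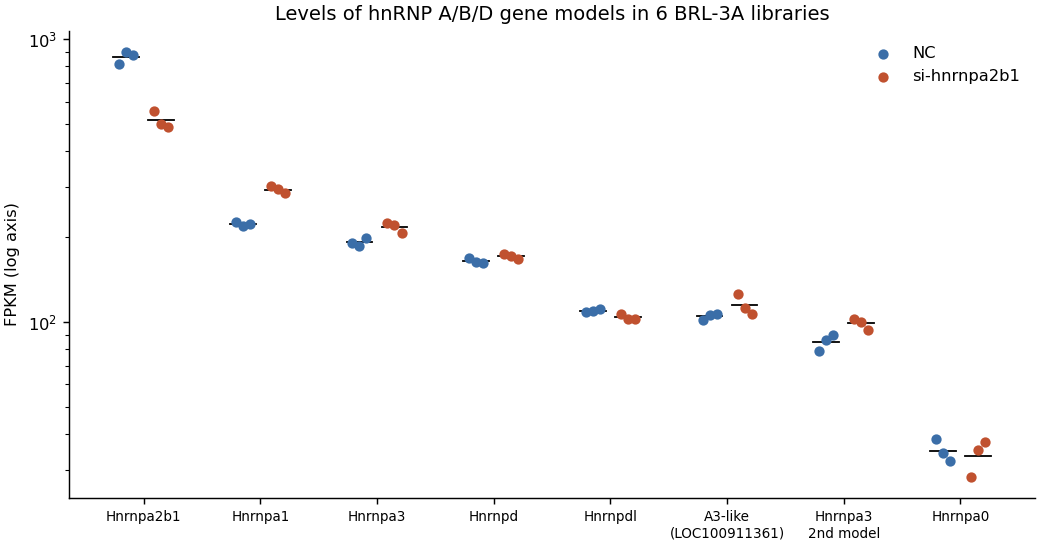
FPKM (log axis) of the hnRNP A/B/D gene models with counts and of the A3-like model in each of the 6 libraries; points are libraries and black lines group means. Hnrnpa2b1 lies highest in both groups, and its NC and si-hnrnpa2b1 points do not overlap; those of Hnrnpa1 and of both Hnrnpa3 models lie apart in the opposite direction.

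Among the 6 tested members 2 rose, 1 fell and 3 did not pass, where 5.3% of all tested genes changed; the seventh, Hnrnpab, was not tested. Of the 5 tested paralogs 2 rose and 0 fell by edgeR's test, and 0 of the 5 fell by DESeq2. Groups did not overlap in 3 of the 6 members, the targeted gene among them, and in 2 of the 5 paralogs, against 23.4% of tested genes. The members were chosen with earlier results of these data known. The median log2 fold change of the 5 paralogs was 0.06, with 3 of 5 above 0, beside a median of -0.00152 over all tested genes. Without NC replicate 1 or 2 or knockdown replicate 1 or 2, 2 members were called in place of 3, Hnrnpa3 being the one lost.

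The order of levels by FPKM was the same in both groups, but the order by CPM was not. Mean FPKM in NC was 863 ± 40.5 (SD, n = 3) for Hnrnpa2b1, 221 ± 4.15 for Hnrnpa1, 191 ± 6.64 for Hnrnpa3, 164 ± 3.92 for Hnrnpd, 109 ± 1.18 for Hnrnpdl and 35.0 ± 3.10 for Hnrnpa0. In knockdown libraries it was 515 ± 37.0, 293 ± 8.89, 216 ± 8.41, 170 ± 3.78, 104 ± 2.54 and 33.7 ± 4.72 in the same order. No neighbours in this order had overlapping library ranges in either group. The closest steps were those from Hnrnpa1 to Hnrnpa3 and from Hnrnpa3 to Hnrnpd in NC, where the means differed 1.16-fold each. The lengths behind these values were 1176 bases for Hnrnpa2b1, 1140 for Hnrnpa3 and 903 for Hnrnpa0, all multiples of 3 as a coding sequence is, but 2143 for Hnrnpa1, 1700 for Hnrnpd and 2269 for Hnrnpdl. Models with and without untranslated parts may therefore be mixed in this order, which does not bear on the fold changes. By mean CPM, which takes no account of length, Hnrnpa2b1 led Hnrnpa1 in NC (1014 against 474) and lay below it after knockdown (607 against 629), with Hnrnpa1 higher in replicates 2 and 3 and lower in replicate 1. Hnrnpa3 lay below Hnrnpdl in NC (217 against 248 CPM) and above it after knockdown (247 against 235 CPM).

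The balance between Hnrnpa1 and Hnrnpa2b1 differed between all NC and all knockdown libraries. The ratio of Hnrnpa1 to Hnrnpa2b1 FPKM was 0.276, 0.243 and 0.252 in NC against 0.541, 0.589 and 0.580 after knockdown. The log2 ratio differed by 1.15 between groups, without overlap (exact two-sided permutation test, p = 0.10, the smallest that 3 against 3 libraries can give). Hnrnpa2b1 made up 52.8%, 55.8% and 54.8% of the summed family FPKM in NC, and 40.1%, 37.8% and 38.1% after knockdown. The share of Hnrnpa1 was 14.6%, 13.6% and 13.8% in NC against 21.7%, 22.3% and 22.1% after knockdown. Of the summed CPM, Hnrnpa2b1 made up 43.2%, 46.1% and 45.2% in NC against 30.9%, 29.0% and 29.2% after knockdown, and Hnrnpa1 21.7%, 20.4% and 20.7% against 30.5%, 31.2% and 30.9%. On either scale the share of Hnrnpa2b1 was lower, and that of Hnrnpa1 higher, in every knockdown library than in every NC library.

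The summed family level was lower after knockdown, although the sum of the paralogs was higher. It was 2208, 2309 and 2268 CPM in NC against 2140, 2014 and 1961 CPM after knockdown, a difference of -224 CPM or -9.89% without overlap (exact permutation test, p = 0.10). On the FPKM scale the sums were 1583 ± 31.6 and 1332 ± 53.6 (SD, n = 3), a difference of -15.9% (exact permutation test, p = 0.10). Hnrnpa2b1 itself was lower by 407 CPM, and the paralogs together were higher by 184 CPM. Most of the latter came from Hnrnpa1, at 155 CPM, with Hnrnpa3 at 29.4 and Hnrnpd at 12.1 CPM. Hnrnpdl and Hnrnpa0 went the other way, at -12.2 and -1.13 CPM. The paralog sum was 1255, 1245 and 1244 CPM in NC against 1478, 1429 and 1387 CPM after knockdown (exact permutation test, p = 0.10). Set against each other, the net gain of the paralogs equalled 45.1% of the loss of Hnrnpa2b1 in CPM and 27.8% in FPKM, where the longer models weigh less. Hnrnpab is missing from every sum.

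**Figure D2:**
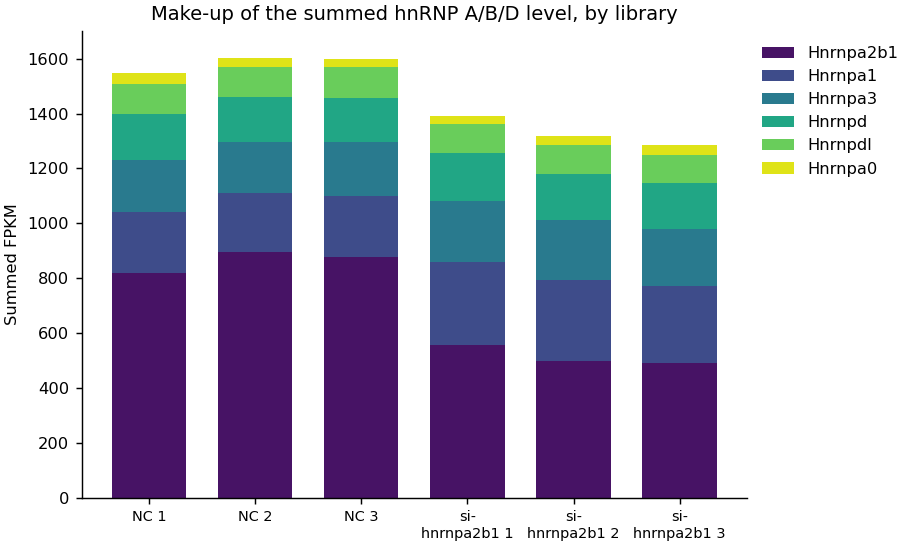
Summed FPKM of the 6 measured family members in each library, stacked by gene. The NC bars reach 1547 to 1603 FPKM and the knockdown bars 1286 to 1390 FPKM; the Hnrnpa2b1 segment shrinks and the Hnrnpa1 segment grows in all 3 knockdown libraries.

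The genes beside the members on the chromosome did not pass the test. Next to Hnrnpa2b1 lies LOC100360260, described in the table as chromobox homolog 3-like, 3186 bases away; in RefSeq's GRCr8 the gene after Hnrnpa2b1 is Cbx3, which encodes the heterochromatin protein HP1 gamma. LOC100360260 had 159, 140 and 156 CPM in NC against 165, 158 and 148 CPM after knockdown (log2 0.04 ± 0.06, edgeR adjusted p = 0.77), and the sign turned to -0.01 without NC replicate 2. Its groups overlapped while those of the adjacent Hnrnpa2b1 did not. Next to Hnrnpa1 lies Cbx5, which encodes the related HP1 alpha, with 52.0, 53.4 and 50.3 CPM in NC against 54.5, 50.2 and 48.3 CPM after knockdown (log2 -0.03 ± 0.07, edgeR adjusted p = 0.90); the sign turned to 0.01 without knockdown replicate 3. These groups overlapped as well.

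On their other flanks Hnrnpa2b1, Hnrnpa1 and the main Hnrnpa3 model adjoin members of 1 transcription factor family. Nfe2l3, beside Hnrnpa2b1, had 4.04 ± 0.192 CPM in NC against 4.37 ± 1.20 CPM after knockdown (edgeR adjusted p = 0.85). Nfe2, beside Hnrnpa1, had 0 counts in all libraries. Nfe2l2, beside Hnrnpa3, encodes the antioxidant regulator NRF2 and had 202 ± 5.33 and 192 ± 5.04 CPM (log2 -0.08 ± 0.05, edgeR adjusted p = 0.39), without overlap of the groups. Enoph1, a methionine salvage enzyme 701 bases from Hnrnpdl, had 28.3 ± 2.15 and 27.8 ± 3.42 CPM (edgeR adjusted p = 0.93). Of the remaining flanking models with counts enough to be tested, Utp18, Idnk and Klhl3, 0 passed by edgeR, and each had an unadjusted p above 0.05. Klhl3 had the largest fold change of these, log2 0.56 ± 0.37 (edgeR adjusted p = 0.46). It had 0.803 ± 0.156 and 1.19 ± 0.316 CPM, with 87 counts over all libraries.

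**Figure D3:**
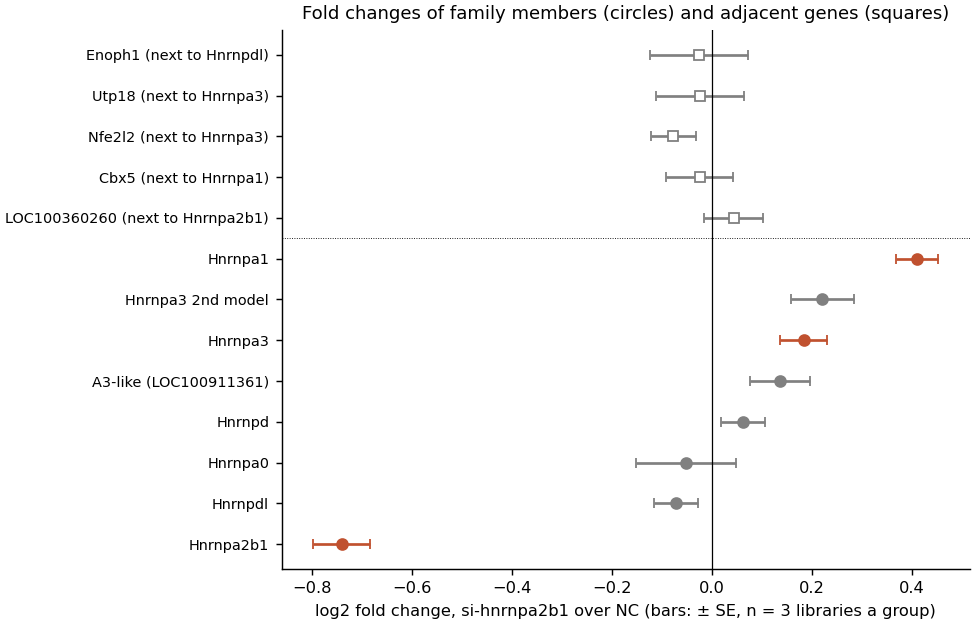
Log2 fold change of si-hnrnpa2b1 over NC with its SE (n = 3 libraries a group) for the family models (circles) and for adjacent genes with at least 1000 counts over all libraries (squares); red marks an edgeR adjusted p below 0.05. Hnrnpa2b1 lies at -0.74 and Hnrnpa1 at 0.41, while the 5 adjacent genes lie between -0.08 and 0.04.

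Genes linked to the family were read in 7 lists, of which 97 genes were tested; 3 rose and 3 fell (6.19%), near the 5.3% of all tested genes. Of 22 other hnRNP genes tested, 0 rose and 1 fell, with a median log2 fold change of -0.02. That gene was Ptbp3, a polypyrimidine tract binding repressor, with 121, 121 and 109 CPM in NC against 84.2, 101 and 94.0 CPM after knockdown (log2 -0.33 ± 0.07, edgeR adjusted p = 0.0081). Its groups did not overlap, but limma on FPKM did not call it (adjusted p up to 0.13). Pcbp3, Hnrnpm and Hnrnph2 came next, at 0.21, -0.11 and -0.14 on the log2 scale with edgeR adjusted p of 0.16, 0.16 and 0.18.

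Neither the nearest relatives outside the family nor the proteins that handle it held a call. Of Msi1, Msi2, Dazap1 and Tardbp, which share the paired motifs, 0 passed by edgeR or DESeq2 and 1 had an unadjusted p below 0.05, Msi2 (21.2 ± 0.645 and 18.2 ± 1.11 CPM, edgeR adjusted p = 0.22). Of 14 genes of nuclear import and modification, among them the import receptors Tnpo1 and Tnpo2 and the arginine methyltransferase Prmt1, 0 passed by either tool, with 3 at an unadjusted p below 0.05: Sumo3 (log2 -0.14), Prmt5 (0.13) and Mknk2 (-0.13). Srpk1, a kinase of splicing factors, followed at 0.10 (edgeR adjusted p = 0.39). Over all 12261 tested genes, 2249 had an unadjusted edgeR p below 0.05.

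Of 19 tested factors of nonsense-mediated decay and the exon junction complex, 0 passed by edgeR or DESeq2. An unadjusted edgeR p below 0.05 was found in 0 of them, beside 2249 of all 12261 tested genes. The smallest adjusted p among them were those of Nbas, Smg1, Magoh and Eif4a3, between 0.32 and 0.46. Their median log2 fold change was 0.01, beside -0.00152 over all tested genes.

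Short-lived transcripts with AU-rich elements, and the proteins that bind these elements beside hnRNP D, held most of the calls. These lists were chosen with earlier results of these data known. Of 17 tested transcripts 3 rose, 1 fell and 13 did not pass (23.5% called, beside 5.3% of all tested genes). Their median log2 fold change was 0.05. Ccnd1, the G1 cyclin D1 (chromosome 1, 218090750 to 218100325), had 143, 157 and 151 CPM in NC against 213, 233 and 220 CPM after knockdown (log2 0.56 ± 0.05, edgeR adjusted p = 8.8e-06). The growth factor response gene Myc (chromosome 7, 102586313 to 102591237) had 29.0, 30.2 and 27.0 CPM in NC against 41.4, 40.7 and 40.0 CPM after knockdown (log2 0.50 ± 0.07, edgeR adjusted p = 6.4e-04). In both genes every knockdown library lay above every NC library. The chemokine Cxcl1 moved the other way, from 811 ± 40.3 to 612 ± 16.7 CPM (edgeR adjusted p = 7.5e-05).

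The phosphatase Dusp1, which switches off MAP kinases, had 34.3, 38.8 and 36.3 CPM in NC against 48.0, 42.4 and 42.0 CPM after knockdown (log2 0.28 ± 0.08, edgeR adjusted p = 0.049). The groups did not overlap, but the call rested on all of NC replicates 1 and 3 and the 3 knockdown libraries, each of which ended it when left out (adjusted p 0.077 to 0.22). DESeq2 (0.069), limma on FPKM (0.079 to 0.15) and a fit with the replicate block (0.0998) did not make it either. Among 11 tested AU-rich element binding proteins 0 rose and 1 fell (9.09% called, beside 5.3% of all tested genes). It was the decay factor Zfp36l1, from 573 ± 71.4 to 470 ± 15.8 CPM (log2 -0.29 ± 0.07, edgeR adjusted p = 0.020). That call was lost without knockdown replicate 2 or 3 or on FPKM with limma (adjusted p at most 0.19). Rc3h1 (log2 -0.21), the stabilising factor Elavl1 (0.18) and Tial1 (0.15) did not pass, with edgeR adjusted p of 0.055, 0.098 and 0.21.

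Of 10 tested transcripts that textbooks link to splicing or transport by hnRNP A1 and A2/B1, 0 passed by edgeR and DESeq2 called 1. Here the model with the most counts stood for each symbol. An unadjusted edgeR p below 0.05 was found in 2 of the 10, beside 2249 of all 12261 tested genes. For Pkm, the pyruvate kinase whose choice of exon depends on these proteins, the outcome turned on the model. The model with the most counts spans only 2417 bases of chromosome 20 (18058245 to 18060661) and carries a symbol that the table credits to mouse. It had 1062, 1092 and 1066 CPM in NC against 1189.5, 1157 and 1154 CPM after knockdown (log2 0.12 ± 0.04, edgeR adjusted p = 0.11; DESeq2 adjusted p = 0.027). The other model (chromosome 8, 64481172 to 64502722), credited to the rat database and singled out after its values were seen, rose, with 568 ± 47.7 CPM in NC against 681 ± 32.6 CPM after knockdown (log2 0.26 ± 0.06, edgeR adjusted p = 0.013). In both models the groups did not overlap, and whether the models share reads was not tested. The call of the chromosome 8 model was lost by limma on FPKM (adjusted p up to 0.19) and without knockdown replicate 1 (0.058), and the sum of both models gave 0.17 (edgeR adjusted p = 0.028).

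Bcl2l1, which codes for opposing splice forms in cell survival, had 63.9 ± 4.76 and 75.2 ± 6.74 CPM (edgeR adjusted p = 0.086), and was called without NC replicate 2 (0.048). Rac1 and Hras followed with edgeR adjusted p of 0.47 and 0.53. The table holds 1 value per gene model, so splice forms were not measured.

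**Figure D4:**
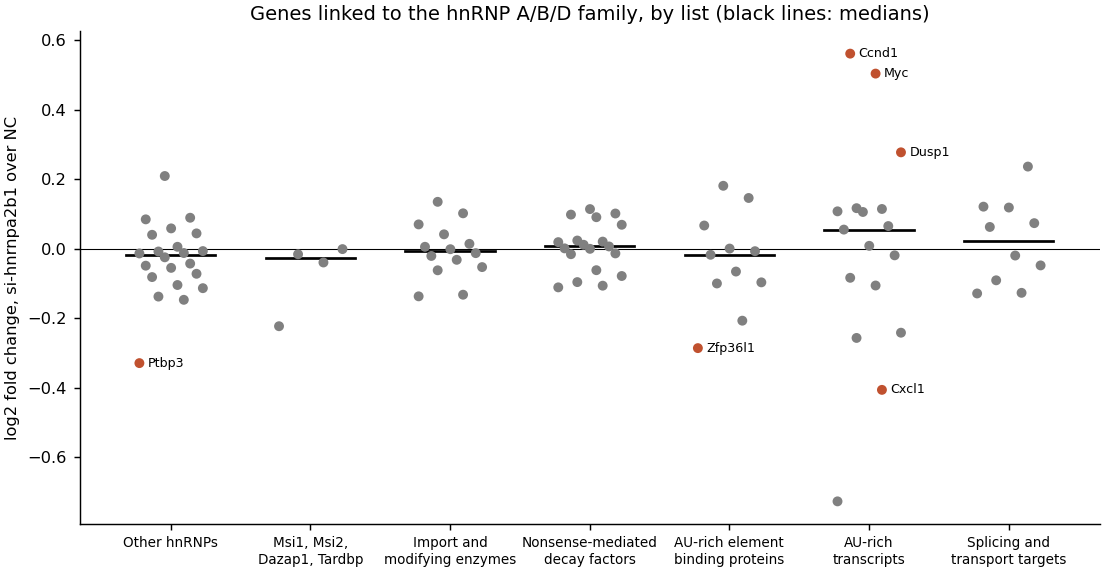
Log2 fold change of si-hnrnpa2b1 over NC for the tested genes of 7 lists linked to the hnRNP A/B/D family, each point a gene; red marks an edgeR adjusted p below 0.05 and black lines are list medians. The list medians lie between -0.03 and 0.05, and the 6 named red points are the genes that changed; Pkm is drawn by its chromosome 20 model.

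The profiles most like those of the 2 leading members were found by the root mean square difference, over the 6 libraries, of log2 CPM minus its NC mean, among 9932 other genes of at least 5 CPM. Nearest to Hnrnpa2b1 were AABR07053749.1, a gene model without description (chromosome 3, 124004419 to 124005426; difference 0.082), and the metal ion carrier Slc39a8 (0.088). They were followed by Hmgcs1 and Hsd17b7 of cholesterol synthesis (0.095 and 0.11) and the desaturase Scd1 (0.10). AABR07053749.1 went from 120 ± 13.6 to 72.9 ± 3.77 CPM, a log2 fold change of -0.72, almost that of Hnrnpa2b1; whether it shares sequence, and so reads, with Hnrnpa2b1 was not tested.

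Nearest to Hnrnpa1 were the surface proteoglycan Gpc4 (0.026), the caveolar protein Sdpr (0.028), the stress gene Gadd45a (0.028), Rgs7bp (0.031) and the matricellular protein Cyr61 (0.037). Gpc4 went from 108 ± 3.32 to 144 ± 8.09 CPM and Gadd45a from 40.8 ± 0.434 to 55.2 ± 3.06 CPM. Rgs7bp did not pass edgeR's test (adjusted p = 0.078). These genes were chosen for their likeness, so their direction is given by the choice.

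**Figure D5:**
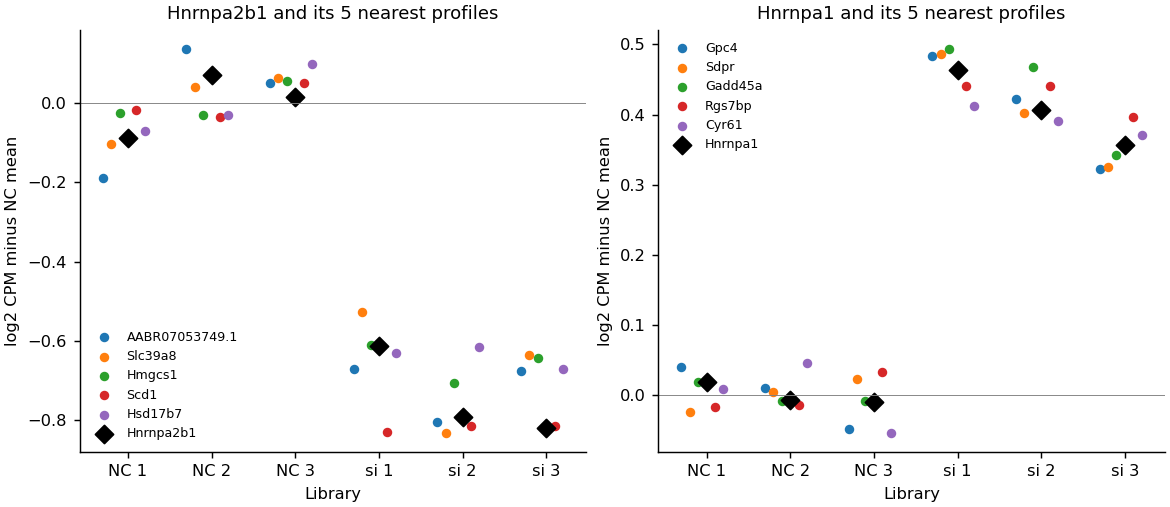
Log2 CPM minus its NC mean in each library for Hnrnpa2b1 (left) and Hnrnpa1 (right), drawn as black diamonds, and for the 5 genes with the nearest profile, drawn as coloured points. Hnrnpa2b1 and its nearest profiles lie low, and Hnrnpa1 and its nearest profiles high, in all 3 knockdown libraries.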

How the data were processed

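RNA-seq of 6 BRL-3A libraries was read from 1 table with a count and an FPKM column per library. Columns were assigned to samples by title, and every such column was used. HISAT2 2.0.4, StringTie 1.3.0, edgeR and the rat build Rnor_6.0 are named, without roles, per the submitters' processing notes. Per the file headers the count columns are raw, and all their values are whole. FPKM, as deposited by the authors, are the counts divided by a length for each gene and by library depth. Not given in the sources used here are the counting program, the strand setting and the treatment of multi-mapping reads.

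The main test was that of edgeR 4.0.16 (R 4.3.3): filterByExpr (minimum count 10, minimum total 15), TMM, quasi-likelihood F-test, two-sided, all genes in 1 fit without covariates. The SE was derived from that fit as the absolute log2 fold change over the square root of its F statistic. Intervals were built from this SE with a t quantile. On simulated counts the main test recovered 88% of changes of 0.5 and 99% of changes of 1 on the log2 scale. This was over 100 genes each, with 12177 genes in the fit and 16 false calls. Changes were planted only in genes of at least 5 CPM. The simulated libraries were drawn independently, with the spread fitted for genes of like level and no replicate effect. Recovery in weaker or more scattered genes was not tested. Alternatives used DESeq2 1.42.0 and limma 3.58.1. Within groups the chi-square per degree of freedom between libraries was 2.91 to 6.00, so no library looked deposited more than once. Of 104 list entries, 101 were matched by symbol. Of each list up to 4 genes with the smallest adjusted p are named, with all members, flanking models and the 5 nearest profiles of each of Hnrnpa2b1 and Hnrnpa1; LOC100911361 and the chromosome 8 model of Pkm were chosen after their values were seen, and Tnpo1, Tnpo2 and Prmt1 only describe a list. Where a symbol has several models, the one with the most counts was read. Members and lists were chosen with earlier results of these data known. RefSeq tables (GRCr8) gave names and promoters only.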

Additional observations from a re-analysis of the deposited data

How the results depend on the processing

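Hnrnpa2b1 and Hnrnpa1 kept their direction and their call under all 17 alternatives, with log2 fold changes from -0.81 to -0.70 and from 0.38 to 0.44. The number of members called was 2 or 3 throughout, 2 with the replicate block. The number of all genes called was 332 by limma on log2(FPKM + 1), 329 by limma on log2(FPKM + 0.1) and 119 by limma without a filter; leaving out 1 library gave 379 to 592, the 3 lowest (390, 380 and 379) without si-hnrnpa2b1 replicate 1, 2 or 3, and the replicate block 481. The 7 lists together held 6 called genes, but 3 by limma on log2(FPKM + 1) or log2(FPKM + 0.1), and 4 to 8 with 1 library left out. The cause was not tested. The summed family difference was -275 to -185 CPM and the log2 ratio difference 1.11 to 1.20 with 1 library left out.

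Signs turned in genes that passed no test. Most had fold changes near 0, but Nfe2l3 and Idnk stood at 0.11 and 0.13 in the main fit. These 2 had 366 and 86 counts over all libraries. Dazap1 gave 0.00025 by DESeq2, 0.00022 with upper quartile scaling and 0.0031 with no low-count filter. With each library left out in turn, log2 fold changes ran from -0.026 to 0.026 for Dazap1, -0.13 to 0.052 for Hnrnpa0, -0.12 to 0.28 for Nfe2l3, -0.012 to 0.084 for LOC100360260, -0.076 to 0.013 for Cbx5, -0.061 to 0.0050 for Utp18, -0.11 to 0.35 for Idnk, -0.12 to 0.064 for Enoph1, -0.077 to 0.010 for Tardbp and -0.065 to 0.023 for Msi1.

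The replicate numbers were not taken to pair the libraries: deviations of same-numbered libraries from the group means correlated at 0.057, -0.0039 and 0.059 over 12261 genes, and 4 of 6 libraries correlated best with their own number. Ptbp1, singled out after its values were seen, stood at 792 and 755 CPM in replicate 3 of both groups and at 441 to 469 CPM in the other libraries. The replicate block lost the calls of Hnrnpa3 (adjusted p = 0.078) and Dusp1 (0.0998). Adding the A3-like model to Hnrnpa3 and reading the chromosome 8 model of Pkm were chosen after seeing the data.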
